A study of Mus musculus with 2 samples.

Results

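The T helper 2 cytokine cluster and Gata3 were read in lists of accessible chromatin from mouse regulatory T cells. The members were 9 protein-coding genes of 21938: Gata3 on chromosome 2 and Kif3a, Il4, Il13, Rad50, Il5, Irf1, Csf2 and Il3 on chromosome 11. Every accessible region that overlapped a member's gene body or the 10 kb to either side of it was taken. The chromosome 11 stretch from Kif3a to Csf2 and Il3, and Gata3 with 300 kb to either side, were also read whole. Together these held 121 of 68903 deposited regions in replicate 1 and 132 of 78262 in replicate 2. The 9 loci alone held 35 and 40.

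The assay was ATAC-seq, in which a transposase cuts DNA that nucleosomes leave open and tags it for sequencing. There was 1 group, regulatory T cells described as primary cells of strain C57BL/6NJ, with 2 libraries labelled as biological replicates 1 and 2. Age was recorded as unknown and sex as not collected. The labels link a protocol for the differentiation of CD4 T cells, which was not used here, and 72 hours is written in the name of every list entry. The same names contain ASTARR and insert, terms left undefined by the sources used here. Whether the regions came from plain ATAC-seq libraries was not established. Both libraries carry the same donor identifier. The spread between them may therefore be technical, and with no other condition no test of a difference was possible. Promoters of the T cell and regulatory T cell markers Foxp3, Il2ra, Ctla4, Ikzf2, Tnfrsf18, Cd4, Cd3e, Cd3g, Cd5 and Cd28 had regions in both replicates, 10 of 10. Over all protein-coding genes the share was 64.4%. Of 32 markers of other cell types, 11 had one (34.4%). These were 3 of 8 mast cell and basophil markers (Gata2, Hdc and Kit), 3 of 4 erythroid and 2 of 6 NK and cytotoxic markers. The rest were 2 of 5 myeloid, 1 of 5 B cell and 0 of 4 hepatocyte markers. The part of other cells in the regions described here was not tested.

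Il4, Il5 and Il13 encode the cytokines that T helper 2 cells secrete against parasites and in allergy, and GATA3 is the transcription factor that establishes that cell fate and opens the cytokine genes. In the mouse, the 3′ part of the DNA repair gene Rad50 holds a locus control region for the neighbouring cytokine genes, and further enhancers are known between Il13 and Il4 and downstream of Il4. GATA3 is also made by regulatory T cells, where it is known to support Foxp3 expression in inflamed tissue.

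The sequences of 10 distal regions, each open in both replicates, are shown. Those on chromosome 11 are all the replicated regions between Il13 and Il4, downstream of Il4 within its annotated gene, and in the introns of Rad50, where known control elements are found. Those on chromosome 2 are the strongest regions by signal of the Gata3 introns beyond its downstream start, in introns 4 and 3. The third is the region with the highest mean rank around Gata3, in Taf3. No region was assigned to a published element. Each takes in the summit of replicate 1 and 100 bases to either side, from the RefSeq copy of GRCm38, written 5′ to 3′ on the plus strand. Capitals mark matches to the GATA consensus on either strand, which is AGATAA or the same letters with T for the first, G for the last, or both.
Downstream of Il4, farther, chr11:53605724-53605924, plus strand: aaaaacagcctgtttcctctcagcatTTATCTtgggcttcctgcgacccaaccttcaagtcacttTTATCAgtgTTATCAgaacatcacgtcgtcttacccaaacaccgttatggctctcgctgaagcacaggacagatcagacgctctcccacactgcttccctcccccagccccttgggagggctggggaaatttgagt
Downstream of Il4, nearer, chr11:53609800-53610000, plus strand: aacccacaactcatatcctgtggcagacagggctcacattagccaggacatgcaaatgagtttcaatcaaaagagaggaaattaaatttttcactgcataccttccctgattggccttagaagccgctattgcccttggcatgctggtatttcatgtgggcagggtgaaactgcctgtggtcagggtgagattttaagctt
Between Il13 and Il4, chr11:53627958-53628158, plus strand: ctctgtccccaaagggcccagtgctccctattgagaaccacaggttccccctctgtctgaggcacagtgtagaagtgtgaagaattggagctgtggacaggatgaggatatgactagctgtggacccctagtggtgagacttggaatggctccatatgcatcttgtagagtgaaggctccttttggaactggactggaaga
Rad50 intron 24, chr11:53651044-53651244, plus strand: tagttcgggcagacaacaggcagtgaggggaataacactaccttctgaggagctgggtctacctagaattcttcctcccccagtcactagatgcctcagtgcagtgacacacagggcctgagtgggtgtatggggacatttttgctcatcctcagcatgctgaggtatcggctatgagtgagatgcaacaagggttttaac
Rad50 intron 22, chr11:53655173-53655373, plus strand: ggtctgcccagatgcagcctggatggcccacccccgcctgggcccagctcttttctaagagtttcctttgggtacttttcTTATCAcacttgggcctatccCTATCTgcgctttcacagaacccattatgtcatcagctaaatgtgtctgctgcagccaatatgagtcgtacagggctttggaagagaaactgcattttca
Rad50 intron 21, 3′ region, chr11:53656850-53657050, plus strand: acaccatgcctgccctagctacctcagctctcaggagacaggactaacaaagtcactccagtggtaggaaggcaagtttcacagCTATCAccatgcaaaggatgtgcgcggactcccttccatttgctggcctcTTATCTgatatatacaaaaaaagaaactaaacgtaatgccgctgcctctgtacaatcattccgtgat
Rad50 intron 21, 5′ region, chr11:53663241-53663441, plus strand: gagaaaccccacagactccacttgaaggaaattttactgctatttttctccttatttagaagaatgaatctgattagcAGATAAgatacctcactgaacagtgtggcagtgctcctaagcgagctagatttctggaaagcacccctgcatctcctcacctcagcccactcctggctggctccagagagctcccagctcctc
Gata3 intron 4, chr2:9867504-9867704, plus strand: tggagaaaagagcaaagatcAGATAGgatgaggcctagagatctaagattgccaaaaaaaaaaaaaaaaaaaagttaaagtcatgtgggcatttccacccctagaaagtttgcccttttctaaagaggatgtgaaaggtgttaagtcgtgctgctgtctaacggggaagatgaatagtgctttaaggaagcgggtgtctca
Gata3 intron 3, chr2:9871266-9871466, plus strand: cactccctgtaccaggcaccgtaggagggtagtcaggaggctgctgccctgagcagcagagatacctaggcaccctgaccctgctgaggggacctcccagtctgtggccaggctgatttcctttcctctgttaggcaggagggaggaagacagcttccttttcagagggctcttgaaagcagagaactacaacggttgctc
Taf3 intron, 107.7 kb upstream of Gata3, chr2:9986231-9986431, plus strand: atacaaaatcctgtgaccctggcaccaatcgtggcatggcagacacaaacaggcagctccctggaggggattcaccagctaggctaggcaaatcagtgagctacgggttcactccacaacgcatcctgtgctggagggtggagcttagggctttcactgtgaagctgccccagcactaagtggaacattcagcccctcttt
The farther region downstream of Il4 held 3 matches, those of Rad50 intron 22 and the 3′ region of intron 21 held 2 each, and the 5′ region of intron 21 and Gata3 intron 4 held 1 each. The other 5, which are the nearer region downstream of Il4, the one between Il13 and Il4, Rad50 intron 24, Gata3 intron 3 and the one in Taf3, held none in these windows. In windows of the same size, 23.3% of all replicated regions of replicate 1 held a match, and 24.6% of those in the 2 stretches. The 10 were chosen by place and rank, so their share is a description only.

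The promoters of the T helper 2 cytokine genes Il4, Il5 and Il13 are shown because no region reached any of these starts in either replicate. The start of Il3 was not reached either, and its promoter is not shown. They are the 250 bases before a RefSeq start in GRCm38.p6, both starts in the case of Il4, written 5′ to 3′ on the strand of the gene. Capitals mark the GATA consensus and the NFAT core GGAAA on either strand, and no AP-1 match (TGANTCA) was found in them.
Il4 outer promoter, chr11:53618666-53618915, minus strand: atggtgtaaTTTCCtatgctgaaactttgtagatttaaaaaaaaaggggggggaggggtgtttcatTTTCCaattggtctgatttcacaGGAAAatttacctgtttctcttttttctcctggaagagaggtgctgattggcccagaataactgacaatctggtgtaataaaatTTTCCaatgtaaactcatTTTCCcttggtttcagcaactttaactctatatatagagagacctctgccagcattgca
Il4 inner promoter, chr11:53617339-53617588, minus strand: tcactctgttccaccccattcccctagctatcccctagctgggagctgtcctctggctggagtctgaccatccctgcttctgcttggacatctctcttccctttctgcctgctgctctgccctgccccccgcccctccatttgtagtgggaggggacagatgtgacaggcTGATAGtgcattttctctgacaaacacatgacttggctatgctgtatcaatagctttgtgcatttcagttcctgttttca
Il5 promoter, chr11:53720544-53720793, plus strand: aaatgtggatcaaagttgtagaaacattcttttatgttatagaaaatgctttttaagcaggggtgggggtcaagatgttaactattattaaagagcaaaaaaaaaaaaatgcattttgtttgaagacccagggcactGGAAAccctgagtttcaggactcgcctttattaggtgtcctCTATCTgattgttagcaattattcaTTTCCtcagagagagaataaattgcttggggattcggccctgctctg
Il13 promoter, chr11:53634703-53634952, minus strand: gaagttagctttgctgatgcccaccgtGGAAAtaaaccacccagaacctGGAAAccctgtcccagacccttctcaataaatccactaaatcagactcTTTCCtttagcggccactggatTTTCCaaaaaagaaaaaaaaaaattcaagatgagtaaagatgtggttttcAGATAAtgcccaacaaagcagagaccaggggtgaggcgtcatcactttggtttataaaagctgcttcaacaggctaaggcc
The outer Il4 promoter held 5 NFAT core matches and no GATA match, whereas the inner one held no NFAT core and 1 GATA match. The inner promoter overlaps a weak region found in replicate 2 alone, described with Il4. Il13 held 4 NFAT cores and 1 GATA match, and Il5 held 2 and 1. Over all 32851 promoters of the RefSeq table, at the same length, 55.6% held an NFAT core, 26.5% a GATA match and 6.75% an AP-1 match. Of the 9 members, 8 had an entry in the promoter table.

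All 9 member loci held at least 2 regions that were present in both replicates, here called replicated: a region of replicate 1 overlapped by 1 bp or more of a region of replicate 2. Gata3, Rad50 and Kif3a had 6 each, Csf2 had 5, Il5 had 4, Il4, Il13 and Irf1 had 3 each, and Il3 had 2. Among the 50000 regions of each list highest by signal, Gata3 had 3 and Il13 had 1. Il13 also had 1 among those highest by −log10 q, as did Il3. The median was 4 over the members, against 2 over all protein-coding genes, of which 76.3% had at least 1 replicated region in their locus. Neighbouring loci share regions, so the members do not count separate regions: merged over the 9 loci there were 42, of which 33 were in both replicates, 2 in replicate 1 alone and 7 in replicate 2 alone. The 9 regions of a single replicate were weak, with −log10 q values between the 0.0639 and the 29.2 percentile of their own list. Over the genome, 93.2% of replicate 1 regions and 81.6% of replicate 2 regions were shared.

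**Figure D1:**
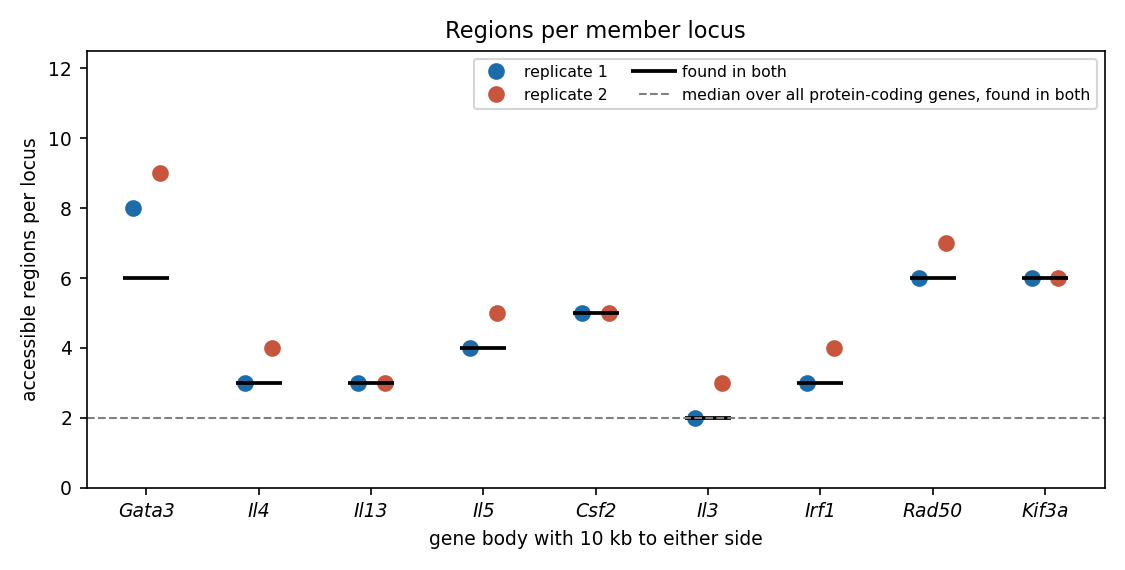
Accessible regions per member locus (y axis), each gene with flanks of 10 kb. Points are the counts of replicate 1 and replicate 2, black bars the replicated regions, and the dashed line the median of 2 replicated regions over all protein-coding genes; the Gata3 locus, with 8 and 9 regions, is the highest and the Il3 locus, with 2 and 3, the lowest.

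Of the 9 members, 6 had a region within 1 kb of an annotated start in both replicates: Gata3, Rad50, Kif3a, Irf1, Csf2 and Il5. Over all protein-coding genes the share was 64.4%, so 6 of 9 was close to the background. Il4 had such a region in replicate 2 alone. A promoter region in a single replicate was found at 1.91% of all genes. Il13 and Il3 had none. A rank is the percentile, within the library's own list, of the deposited signal (the authors' height of a region, whose scale is not stated) or of the deposited −log10 q.

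Gata3 has 2 protein-coding starts on the minus strand, and both were open. The region over the downstream start, at base 9878600 of chromosome 2 and of a transcript with 6 exons, had signals of 6.17 in replicate 1 and 5.71 in replicate 2, at the 46.2 and 46.9 percentile. It was 1918 and 1935 bp wide, its summit lay at the same base in both replicates, 1.033 kb upstream of that start, and its −log10 q stood at the 88.8 and 88.5 percentile. The upstream start, at base 9890034, lay in a region 1052 and 1089 bp wide with signals of 13.1 and 12.1. That signal stood at the 89.1 and 86.2 percentile, and its −log10 q at the 87.9 and 88.1 percentile. The upstream region was therefore higher by signal in both replicates, whereas by −log10 q the 2 lay within 1 percentile point of each other. The upstream region also covers the start of 9230102O04Rik, an annotated protein-coding gene of unnamed function, so it cannot be credited to Gata3 alone.

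Inside the Gata3 gene (chr2:9857078-9890034), 5 regions were present in both replicates, 3 of them in introns beyond the downstream start. The region of intron 4, 10.996 kb from that start (chr2:9867234-9867920 in replicate 1), had signals of 5.97 and 5.32. The region of intron 3, 7.234 kb from the start, had signals of 4.26 and 4.76, and that of intron 2, 2.628 kb from it, 2.68 and 2.62. By signal these were average to weak, from the 44.9 and 42.5 percentile in intron 4 through 24.2 and 36.4 in intron 3 to 4.03 and 5.97 in intron 2. By −log10 q the same 3 stood at 71.2 and 70.9, 66.0 and 75.7, and 51.6 and 56.5. Of the 5 regions of the gene, 4 had a −log10 q rank at least 20 points above their signal rank in both replicates, against 11.4% and 11.5% of all replicated regions. In the 2 stretches together 9 of 114 replicate 1 regions and 10 of 115 replicate 2 regions did, which is below the background share.

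**Figure D2:**
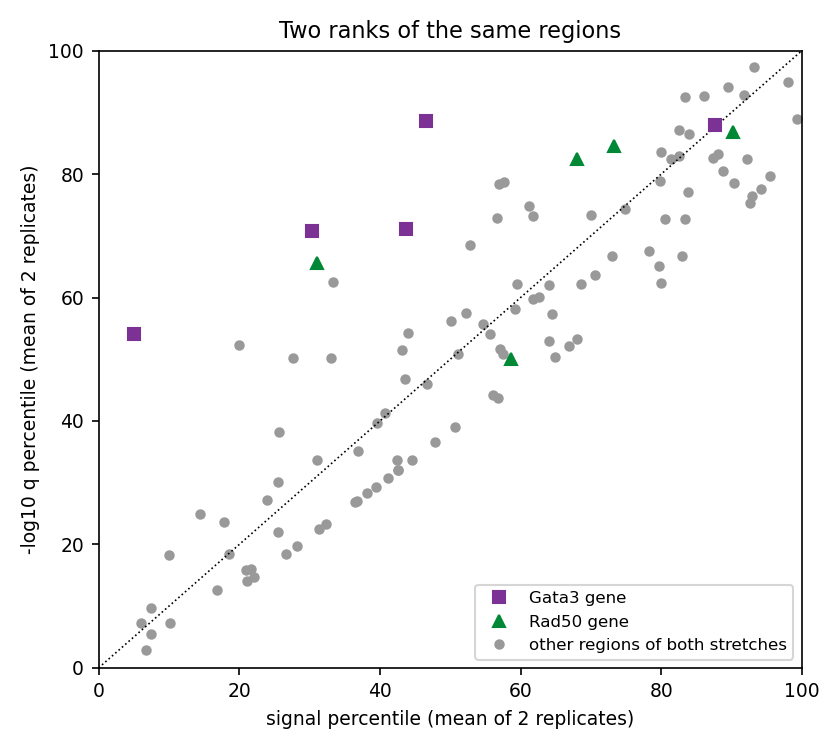
Rank of each replicated region by signal (x axis, percentile) and by −log10 q (y axis, percentile), each the mean of the 2 replicates. Squares are the 5 regions of the Gata3 gene, triangles the 5 of the Rad50 gene and circles the other regions of both stretches; the dotted line marks equal ranks, and 4 of the 5 squares lie well above it.

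Il4 (chr11:53602982-53618669, minus strand), which encodes the cytokine that drives the T helper 2 fate, had no region nearer than 8558 bp to its outer start, at base 53618669, in replicate 1. Replicate 2 held a weak region, chr11:53617367-53617676, whose signal of 3.17 stood at the 14.5 percentile and −log10 q at the 8.83 percentile. It lay 993 bp from the outer start and 29 bp from an inner one, at base 53617338. The 3 replicated regions of the Il4 locus lay away from its starts, 1 upstream, between Il13 and Il4, and the other 2 downstream of the coding transcripts. A downstream region 12.845 kb from the outer start, the one with 3 GATA matches, had signals of 7.81 and 6.00, at the 60.1 and 49.1 percentile. A second, 8.769 kb from that start, had signals of 5.45 and 5.86, at the 38.8 and 48.4 percentile. Both overlap a processed transcript that extends the annotated gene, and both also fall in the 10 kb flank of Kif3a.

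Il13 (chr11:53631324-53634702, minus strand) encodes an effector cytokine that acts on airway and gut epithelium. Its nearest region lay upstream, 1441 bp from the start in replicate 1 and 1063 bp in replicate 2, and its signal was 4.47 and 5.68, at the 27.1 and 46.8 percentile. A region in intron 3 was weaker, with signals of 3.35 and 3.71 at the 12.8 and 22.9 percentile. The strongest region of the Il13 and Il4 loci lay in the intergenic space between the genes, 6.644 kb downstream of the Il13 start (chr11:53627669-53628161 in replicate 1). Its signal was 8.51 and 9.18, at the 65.1 and 72.0 percentile, and its summit fell on the same base in both replicates.

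Il5 (chr11:53720794-53725106, plus strand) encodes the growth factor of eosinophils. The region counted at its promoter did not cover the start: its near edge was 694 bp upstream in replicate 1 and 555 bp in replicate 2. Its signal was 7.10 and 7.34, at the 54.4 and 60.5 percentile, and with a promoter window of 500 bp Il5 had no promoter region. A weak region lay in intron 2, at the 17.96 and 15.7 percentile by signal. At the far side of the gene, 15.004 kb downstream of the start, a region of 1096 bp had signals of 7.88 and 6.56 and a −log10 q at the 80.3 and 77.1 percentile. A neighbour 16.403 kb downstream, just outside the 10 kb flank, had signals of 7.10 and 7.19 and stood at 76.6 and 80.1 by −log10 q. Both had their summits on identical bases in the 2 replicates. Another region, 6.461 kb upstream of the Rad50 start in the space between Rad50 and Il5, had signals of 8.51 and 7.74, at the 65.1 and 63.1 percentile.

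Rad50 (chr11:53649519-53707319, minus strand, 25 exons) encodes a subunit of the MRN complex that senses broken DNA, and its promoter was open in both replicates, with signals of 13.3 and 13.3 at the 89.9 and 90.6 percentile. Its 4 intronic regions all lay towards the 3′ end, in introns 21 to 24, which is the part of the gene nearest Il13. The region of intron 24 (chr11:53650818-53651607 in replicate 1) had signals of 8.42 and 9.12 and that of intron 22 (chr11:53655035-53655484) 4.50 and 4.63. In intron 21 the 3′ region (chr11:53656717-53657200) had signals of 9.00 and 10.3, and the 5′ region (chr11:53662940-53663649) 7.37 and 7.38. By −log10 q the regions of intron 24 and the 3′ region of intron 21 stood at 80.2 and 84.8 and at 81.5 and 87.8, intron 22 at 62.5 and 68.5, and the 5′ region at 47.3 and 52.9. Summits of the 4 differed by 1, 70, 0 and 8 bp between replicates. From the last of them to the promoter, 42.8 kb of the gene held no region in either replicate, the longest empty interval of the chromosome 11 stretch. Within 100 bp of the replicate 1 summits, 3 of the 4 held a GATA match, against 23.3% of all replicated regions of replicate 1. With 4 regions this share is a description only.

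**Figure D3:**
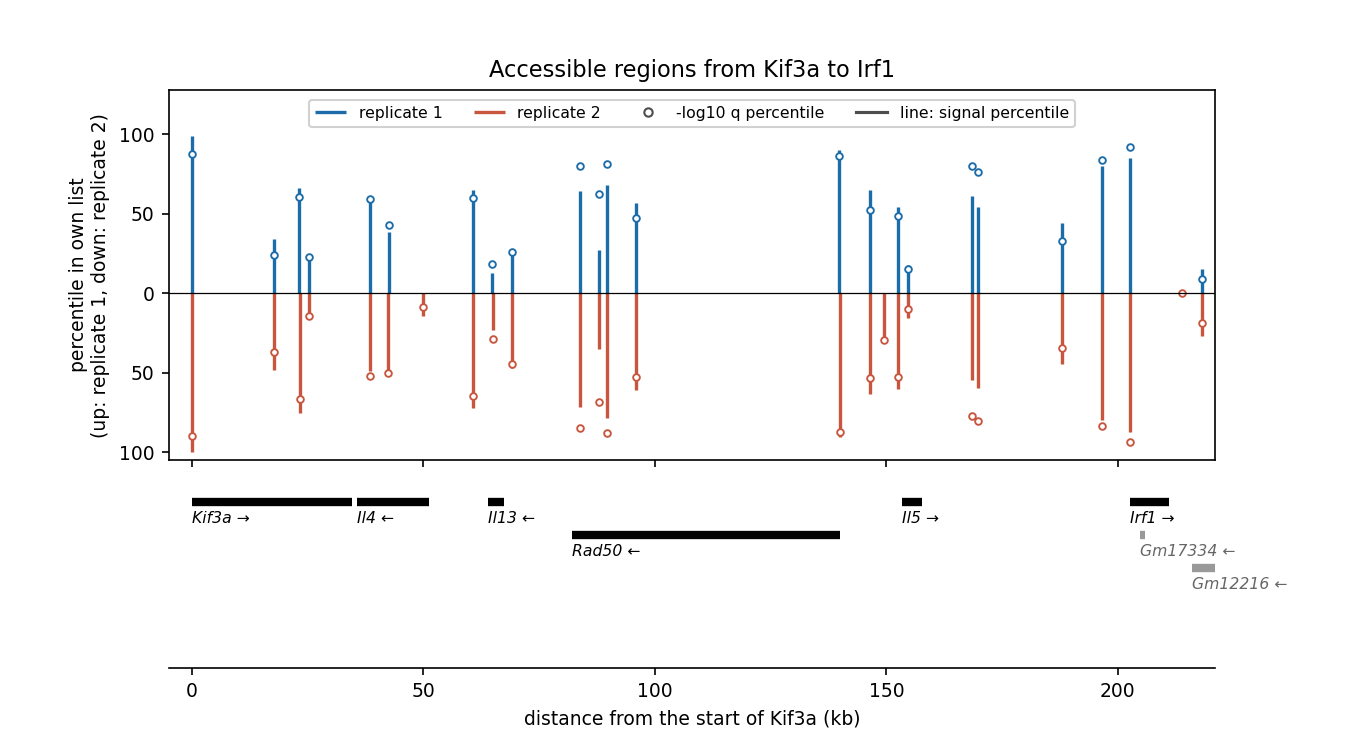
Accessible regions from Kif3a to Irf1, by distance from the Kif3a start (x axis, kb). Lines give the signal percentile and circles the −log10 q percentile, upward for replicate 1 and downward for replicate 2, with genes drawn to scale and arrows for their strand; 4 regions cluster at the 3′ end of Rad50, followed by 42.8 kb without any before its promoter.

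Kif3a (chr11:53567379-53601967, plus strand, 17 exons), which encodes a subunit of the kinesin-2 motor, bounds the cluster. Its promoter had the highest signal of all members, 17.1 and 18.6, at the 98.9 and 99.7 percentile. Its 3 intronic regions were lower, the highest of them in intron 9 with signals of 8.62 and 9.72. Irf1 (chr11:53770014-53778374, plus strand) encodes an interferon-induced transcription factor. Its promoter region had signals of 12.1 and 12.4, at the 84.9 and 87.3 percentile, and an upstream region 6.551 kb from an Irf1 start (chr11:53762981-53764399 in replicate 1) had 11.1 and 10.7, at the 80.2 and 79.8 percentile.

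Csf2 and Il3 encode the growth factors GM-CSF and interleukin 3 and lie at the far end of the stretch. Csf2 (chr11:54247271-54249667, minus strand) had 5 regions in each replicate, all shared. Its promoter region covered the start, with signals of 7.81 and 7.83 at the 60.2 and 63.5 percentile. Both flanks were open too. A region 12.459 kb downstream had signals of 10.1 and 9.63, and one 7.542 kb upstream, between Csf2 and Il3, had 9.74 and 9.37. Il3 (chr11:54265303-54267277, minus strand) shared that last region. Its nearest own region lay 2384 bp from its start in replicate 1 and 2283 bp in replicate 2, inside the flank on the 3′ side, with signals of 5.01 and 5.50 at the 34.2 and 44.7 percentile.

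Set in order by −log10 q, the mean percentile of the promoter regions was 92.6 ± 0.899 for Irf1, 89.0 ± 1.43 for Kif3a, 88.6 ± 0.221 for the downstream and 88.0 ± 0.147 for the upstream start of Gata3, 86.8 ± 0.795 for Rad50, 73.2 ± 2.57 for Csf2 and 50.8 ± 2.77 for Il5 (SD, n = 2 libraries each). The values of Kif3a took in those of the downstream Gata3 start and overlapped those of the upstream one, so their order is not resolved. By this rank Csf2 and Il5 stood below the other 4 genes in both replicates. By signal Kif3a came first at 99.3 ± 0.629, followed by Rad50 at 90.3 ± 0.502, the upstream Gata3 start at 87.6 ± 2.07 and Irf1 at 86.1 ± 1.68. The ranges of the upstream Gata3 start and Irf1 overlapped, as did those of Csf2 at 61.8 ± 2.39 and Il5 at 57.5 ± 4.27. The downstream Gata3 start came last by signal, at 46.5 ± 0.558.

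Read as one locus, the chromosome 11 stretch (chr11:53567379-54267277, 699.9 kb) held 72 regions in replicate 1 and 76 in replicate 2, a mean of 74 ± 2.83 (SD, n = 2), of which 70 were replicated. The number per 100 kb was 4.13 times that of the ungapped genome, which held 2.42. Among 3717 windows of the same length tiled over the genome the median was 11 replicated regions and the highest 90. Of these windows, 0.592% had at least as many as the stretch, while 26.2% had none. The tiled windows, here and for Gata3 below, were not matched for their genes. Per 100 kb the stretch lay below Tbx21 with 300 kb to either side, which had 10.4. It lay above Foxp3 at 8.20, Gata3 at 6.95 and Bcl6 at 5.61, read in the same way. Regions covered 7.21% of the stretch in replicate 1 and 7.80% in replicate 2, against 1.93% and 2.22% of the ungapped genome. Of the replicated regions, 16 lay at promoters, 22 in introns, 31 between genes and 1 in an untranslated region.

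The regions were not spread evenly over the stretch. The cytokine core from the start of Kif3a to the end of Il5 held 17 in both replicates, 10.8 per 100 kb, and the interval from Il5 to the end of Irf1 held 5, 9.39 per 100 kb. The interval between Irf1 and P4ha2, which holds the carnitine and organic cation transporter genes Slc22a5, Slc22a21 and Slc22a4, held 23, 7.15 per 100 kb. The end from P4ha2 to Il3 was the densest of these 4 intervals, with 25 or 14.95 per 100 kb. The 5 regions from Il5 to Irf1 were average by signal, with medians at the 61.0 and 59.4 percentile, and higher by −log10 q, at 80.3 and 80.1. Beside the members, the promoters of Slc22a5, Slc22a21, Slc22a4, Pdlim4, P4ha2 and Gm12216 were open in both replicates and that of Gm17334 in neither. The Slc22a5 promoter, at the 97.9 and 96.7 percentile by −log10 q, ranked above every member promoter.

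**Figure D4:**
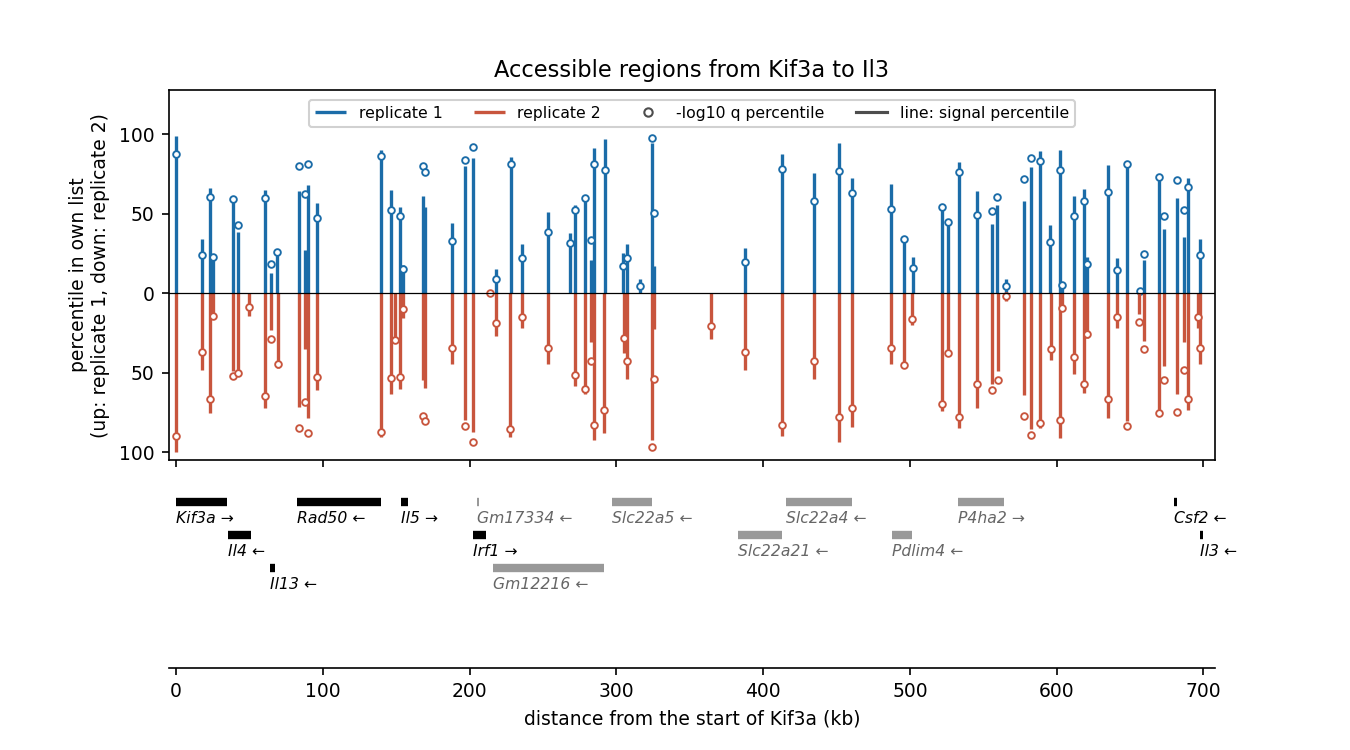
Accessible regions over the whole chromosome 11 stretch, by distance from the Kif3a start (x axis, kb), drawn as signal percentile (lines) and −log10 q percentile (circles) with replicate 1 upward and replicate 2 downward. Members are black and other protein-coding genes grey; Csf2 and Il3 at the right end lie in the densest interval, with 25 replicated regions from P4ha2 to Il3.

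Gata3 with 300 kb to either side (chr2:9557078-10190034, 633.0 kb) held 49 and 56 regions, a mean of 52.5 ± 4.95 (SD, n = 2), of which 44 were replicated, 6.95 per 100 kb. Among 4125 tiled windows of that length the median was 9, 8.32% had at least as many as Gata3, and 27.8% had none. The replicates agreed less here than on chromosome 11: 89.8% of replicate 1 and 78.6% of replicate 2 regions were shared, against 97.2% and 93.4% over the chromosome 11 stretch. Both Gata3 values were also under the genome's 93.2% and 81.6%, and those of chromosome 11 above it.

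The 3′ side of Gata3 has no protein-coding start in its 300 kb, and the next protein-coding gene downstream lies 2347.5 kb away. It held 22 replicated regions, 7.33 per 100 kb. Of 2591 windows of 300 kb without a protein-coding start, 0.656% held at least as many; their median was 0 and their highest 41. The 5′ side, which holds Taf3, Atp5c1, Kin, Itih2 and Itih5, had 17 replicated regions, 5.67 per 100 kb, and the gene itself 5. On the 3′ side, a region 300.4 kb past the downstream Gata3 start (chr2:9577698-9578571 in replicate 1) had signals of 13.0 and 13.2, at the 88.8 and 90.2 percentile. Another, 194.6 kb downstream (chr2:9683672-9684369), had 10.6 and 12.8, at the 77.9 and 88.8 percentile. Both stood at or above the 90.2 percentile by −log10 q in each replicate.

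The strongest region around Gata3 by the mean of either rank lay on the other side, in an intron of Taf3, a subunit gene of the general transcription factor TFIID. It is 107.7 kb before the downstream Gata3 start (chr2:9985703-9986617 in replicate 1), and its signal of 16.8 and 16.0 stood at the 98.6 and 97.4 percentile. Its −log10 q stood at 95.5 and 94.4. Neighbouring promoters of Taf3, Atp5c1, Kin and Itih5 were open in both replicates, and those of Itih2, a gene for an inhibitor chain secreted by liver, and 4930412O13Rik in neither. Which gene a distal region acts on cannot be read from these lists.

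**Figure D5:**
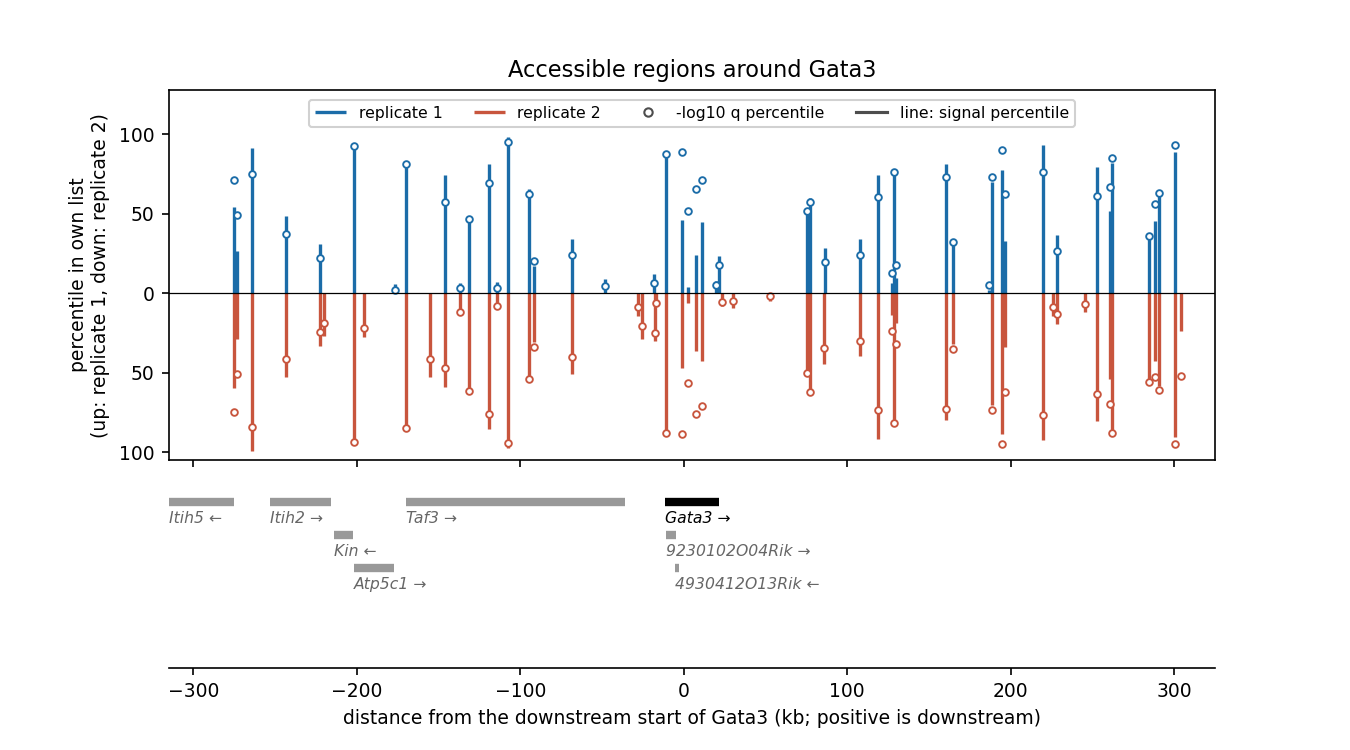
Accessible regions around Gata3, by distance from the downstream start of Gata3 (x axis, kb, positive is downstream), drawn as signal percentile (lines) and −log10 q percentile (circles) with replicate 1 upward and replicate 2 downward. Grey genes all lie on the upstream side, whereas 22 replicated regions lie downstream where no protein-coding gene starts.

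Windows with 300 kb to either side of the regulators of other CD4 T cell fates gave a scale for Gata3. Gata3 had 44 replicated regions and 8 protein-coding genes with a start in its window. Foxp3, the regulator of the regulatory T cell itself, had 51 and 21, Tbx21 of the T helper 1 fate had 64 and 18, and Bcl6 of the follicular helper fate had 35 and 4. Per 100 kb the values were 6.95 for Gata3, against 10.4 for Tbx21, 8.20 for Foxp3 and 5.61 for Bcl6, and all 4 promoters were open in both replicates. Counting all of a replicate's own regions, Gata3 had 49 and 56 and Foxp3 52 and 55, so the ranges of these neighbours in the order overlapped. Those of Gata3 and Bcl6, with 36 and 37, did not.

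A list of 38 genes that act with the cluster in T helper 2 cells, or oppose that programme, was read in the same way. It was chosen with earlier results of these data known. Of the 38 genes, 35 (92.1%) had a promoter region in both replicates, against 64.4% of all protein-coding genes. The median of the list was 5 replicated regions per locus, against 2. All 7 receptor and kinase genes, among them Il4ra of the interleukin 4 receptor, were open, as were the signal transducers Stat6, Stat5a and Stat5b, all 13 factors that act with or for Gata3, and all 4 that oppose the programme. Most regions were found at Ets1 with 28, Nfatc2 with 22 and Ikzf1 with 21, which are genes of 121.6, 125.2 and 87.9 kb for factors used in many T cells. The exceptions were Il1rl1, the interleukin 33 receptor, and Il31, a cytokine of itch, each open in replicate 2 alone, and Ptgdr2, a prostaglandin receptor that marks T helper 2 cells, open in neither. Many of these genes act in all T cells, so the count does not separate T helper 2 genes from other T cell genes.

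Sequence features of the replicated stretch regions were set beside those of all replicated regions. A GATA match within 100 bp of the summit was found in 28 of 114 regions of replicate 1 (24.6%) and 34 of 115 of replicate 2 (29.6%), a mean of 27.1% ± 3.54 (SD, n = 2), against 23.3% of all replicated regions in each replicate. In the member loci 9 of 33 held one at the replicate 1 summit. On the 3′ side of Gata3 7 of 22 did (31.8%), and on the 5′ side 4 of 17 (23.5%), also at the replicate 1 summit. The RUNX core TGTGGT was found in 27.2% and 24.3%, against 19.95% and 19.9% of all, and the MAF half-site TGCTGA in 23.7% and 19.1%, against 16.7% and 16.7%. AP-1 (TGANTCA) was found in 13.2% and 14.8%, against 18.6% and 19.0%, and the STAT6 spacing, TTC and GAA with 4 free letters between, in 4.39% and 6.96%, against 5.62% and 5.67%. The STAT6 share lay on either side of the background in the 2 replicates. The general STAT spacing TTCNNNGAA was found in 15.8% and 16.5%, against 13.4% and 13.5%, and the NFAT core in 56.1% and 53.9%, against 51.8% and 52.0%. The ETS core GGAAGT was found in 19.3% and 21.7%, against 20.6% and 20.7%, and the E-box CAGCTG in 7.89% and 12.2%, against 12.8% and 12.8%. CTTTGA of the TCF family was found in 14.9% and 19.1%, against 15.3% and 15.2%, and the IRF string, GAAA repeated after 2 free letters, in 4.39% and 5.22%, against 4.01% and 4.03%. ETS and TCF matches, like those of STAT6, lay below the background in one replicate and above it in the other. The NF-kB consensus was found in 1 region of each replicate, 0.877% and 0.870%, against 1.08% and 1.12%. The CTCF core was found in 4.39% and 4.35%, against 5.05% and 5.06%. Shares of GATA, RUNX, MAF, STAT, NFAT and IRF matches lay above the background in both replicates. Those of AP-1, the E-box, NF-kB and CTCF lay below it. Several were close to it: IRF matches lay in 5 and 6 regions, CTCF in 5 and 5, and GATA in replicate 1 was 24.6% against 23.3%. The NF-kB share rests on 1 region in each replicate, so its side of the background is not resolved. The 2 replicates read largely the same bases, so their agreement adds little. These differences were not tested. All were sought on both strands, the NF-kB consensus contains the NFAT core on the other strand, and a match does not show binding. Median GC content was 51.5% in replicate 1 and 51.7% in replicate 2 on the chromosome 11 stretch and 47.3% in both around Gata3, against 49.8% of all replicated regions. Median widths in replicate 1 were 654.5 bp on chromosome 11 and 603 bp around Gata3, against 666 bp. Summits of the 114 regions lay a median of 22 bp apart between replicates, 79 of them within 50 bp.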

How the data were processed

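ATAC-seq was deposited for 2 libraries of 1 group as 1 narrowPeak list each, on mm10 per the labels. The lists hold positions, a signal, −log10 p and −log10 q values, and entry names that give 1 library each. The deposited signal has no stated scale or denominator. The deposited score per region was not used. The deposited −log10 q values were at least 1.00 in both lists. For the aligner, the region caller, their versions and any shift for the transposase: not given in the sources used here. Depth is unknown because no counts are listed.

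Of 68903 and 78262 regions, 68832 and 78178 lay on chromosomes 1 to 19, X and Y and were used. Genes came from GENCODE M21 on GRCm38, the same build as mm10. Signal and −log10 q were used only as percentiles within each list or as the authors' own values. A locus was the gene plus flanks of 10 kb, and a promoter lay within 1000 bp of any annotated start. Motifs were 13 consensus strings. Background windows were tiled end to end, leaving out those with over 10% gaps. Named genes were the 9 members, all protein-coding genes starting in the stretches, list genes without a promoter region in both replicates, the 3 list genes with most regions, and 3 lineage regulators beside Gata3; 1 gene that this rule takes is not reported here. Named regions were those of member loci and the 5 highest outside by −log10 q. Il4ra, Stat6, Stat5a and Stat5b, the markers named, and the region 16.4 kb downstream of Il5 were chosen for naming once their values had been seen. The windows of 300 kb without a protein-coding start were added then too. Members and lists were chosen with earlier results of these data known. Overlap and motif procedures were tested on simulated data, and the percentile procedure was not. Python 3.11.15, pandas 2.3.3 and pysam 0.24.0 were used. No p-value was computed from these lists.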

Additional observations from a re-analysis of the deposited data

How the results depend on the processing

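The counts kept within 1.5 times of the values reported under every alternative that changed the lists or the overlap, for both stretches, the 9 loci together, the member promoters and the pathway promoters: the chromosome 11 stretch held 48 to 68 replicated regions and the Gata3 window 31 to 42, against 70 and 44. From a single replicate they held 72 to 76 and 49 to 56. Over the 9 loci, 33 became 20 with the gene body alone and 51 with 50 kb to either side, and 35 to 40 from a single replicate. Member promoters numbered 5 with a window of 500 bp, without Il5, and 7 with 2 kb. The gene added at 2 kb is Il13, whose nearest region lay 1441 bp from its start in replicate 1 and 1063 bp in replicate 2. From a single replicate member promoters numbered 6 to 7, which adds Il4 from replicate 2. Pathway promoters numbered 29 to 35, and 35 to 37 from a single replicate. The share of stretch regions with a GATA match, 27.1%, was 14.8% within 50 bp and 45.4% within 200 bp of the summit, by construction of the window, and 23.97% to 28.8% from a single replicate. The median signal percentile of the stretch regions was 54.3 ± 0.167 (SD, n = 2), from 54.4 in replicate 1 and 54.2 in replicate 2. Over all replicated regions it was 53.1 and 59.0, near the stretches in replicate 1 and above them in replicate 2. It was 66.2 among the 50000 stretch and other regions highest by −log10 q and 64.3 among the 50000 highest by signal. With −log10 q of 5 or more it was 58.3. Percentiles were taken over the full lists before these cuts. A cut by signal thus raises the median by construction, and cuts by −log10 q also remove weak regions. The median was 56.4 with an overlap of at least 50%, 56.9 by −log10 q itself, and 49.1 to 53.8 from a single replicate. For single loci, Gata3 fell to 3 among the 50000 highest by signal, against 6 in the full lists, Il13 to 1 by either rank, against 3, and Il3 to 1 by −log10 q, against 2. No paired analysis was possible because there is 1 group. Depth is unknown, so a start without a region, such as that of Il13, means only that none was listed at the lists' own limit.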
